A study of Schizosaccharomyces pombe with 8 samples.

Results

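Of the 40 RNAs listed for their signal in an immunoprecipitation (IP) of the fission yeast protein Lsm8, 3 protein-coding ones with links to stress leaned lower without the telomerase protein Pof8: rds1 (SPAC343.12), obr1 (SPAC3C7.14c) and grx1 (SPAC4F10.20). They are described here together with SPAC343.20, a gene that overlaps rds1 and serves as the contrast. These 4 genes are 4 of the 40 RNAs with RNA-Seq counts and 4 of the 7014 genes of the immunoprecipitation table. They were chosen on their change in pof8Δ cells in these same libraries, so that change is given below as a description, without a test. The 40 RNAs are among the 44 genes whose deposited ratio was above 1.5 and whose normalized count exceeded that of the control by 10 or more, so the signal of the 4 genes in the Lsm8 IP was also fixed in part by the choice.

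RNA-Seq was performed on 3 pof8+ and 3 pof8Δ libraries of Schizosaccharomyces pombe, from ribosome-depleted total RNA of cells in YES rich medium. Both strains share the mating type h- and the alleles ade6-M216, leu1-32, his3-D1 and ura4-D18, and in pof8Δ cells the open reading frame of pof8 is replaced by kanMX6. For the IP, RNA that came down with myc-tagged Lsm8 (lsm8-myc13, natMX6, same auxotrophic markers) and RNA from a control IP were sequenced as 1 library each. Which strain gave the control IP is not given in the sources used here. The labels do not say whether the 3 libraries of a group came from separate cultures, so their spread may be technical. Counts of pof8 were not analysed here, so the strains were not checked on the deleted gene. The RNA-Seq library totals, worked back from deposited values, were 49448968 to 72951191 reads, which are not all reads sequenced. The Lsm8 IP had 6604836 reads over the genes. For the control IP, 942080 reads were recovered, without those of 98 genes that had reads in this library only. TER1, the telomerase RNA, served as a reference and had a log2 fold change of -1.96 ± 0.113 (standard error).

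Lsm2-8 is a ring of proteins that binds U-rich 3′ ends. It is known for holding the U6 spliceosomal RNA in the nucleus and, in fission yeast, for protecting mature TER1. rds1 is a gene whose mRNA responds to nutrients and to stress. obr1 encodes a flavodoxin-like quinone oxidoreductase, and it is a known target of Pap1, the AP-1-like transcription factor of the oxidative stress response. grx1 encodes a glutaredoxin, a small enzyme that uses glutathione to reduce disulfide bonds. SPAC343.20 is described as dubious in the deposited table and has no assigned role.

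In the ASM294v3 annotation, rds1 and SPAC343.20 lie on opposite strands and overlap over most of their lengths. obr1 lies within SPNCRNA.793 (obr1-antisense-1), a non-coding RNA on the opposite strand, and grx1 overlaps SPNCRNA.4190, a non-coding RNA on the opposite strand that is not in the tables analysed here. SPNCRNA.793, also among the 40 RNAs, and the other neighbouring genes below were picked with their values known. Coordinates are not given because the files use the earlier build ASM294v2.

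rds1 was present at 187, 191 and 172 CPM (counts scaled to 1e+06 reads of the library) in pof8+ replicates 1 to 3. In pof8Δ replicates 1 to 3 it was at 93.6, 89.8 and 100.2 CPM. Every pof8Δ library lay below every pof8+ library. The means were 184 ± 10.1 and 94.5 ± 5.24 CPM (SD, n = 3 each). This is a log2 fold change of -0.96 ± 0.106 (standard error), which leaves 51.5% of the pof8+ level. Of the 40 RNAs, only TER1 had a lower value. The spread between libraries of rds1 was narrow, with a coefficient of variation of 5.48% in pof8+ and 5.55% in pof8Δ, where the medians over the 40 RNAs were 10.4% and 7.06%. Counting error alone gives at most 1.33% for rds1.

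SPAC343.20, on the opposite strand, differed from rds1. It was measured at 30.2, 23.8 and 27.5 CPM in the pof8+ libraries and at 27.7, 29.0 and 29.5 CPM in the pof8Δ libraries. The groups overlapped, since the highest and the lowest values were both in pof8+. Its log2 fold change was 0.081 ± 0.131 (standard error), smaller than its error, and without pof8+ replicate 2 it was -0.005.

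obr1 was the most abundant of the 4. Its level was 857, 962 and 981 CPM in pof8+ and 736, 677 and 694 CPM in pof8Δ libraries. The 2 groups did not overlap. From 934 ± 66.6 CPM in pof8+ it went to 702 ± 30.3 CPM in pof8Δ (SD, n = 3 each). That corresponds to a log2 fold change of -0.41 ± 0.092 (standard error), or 75.2% of the pof8+ level.

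grx1 gave the smallest difference of the 3. Its pof8+ libraries held 122, 121 and 148 CPM, and its pof8Δ libraries 112, 112 and 103 CPM. Again the groups did not overlap, although pof8+ replicate 3 stood well above replicates 1 and 2. The log2 fold change was -0.26 ± 0.114 (standard error), or 83.4% of the pof8+ level. Without pof8+ replicate 3 it was -0.16.

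**Figure D1:**
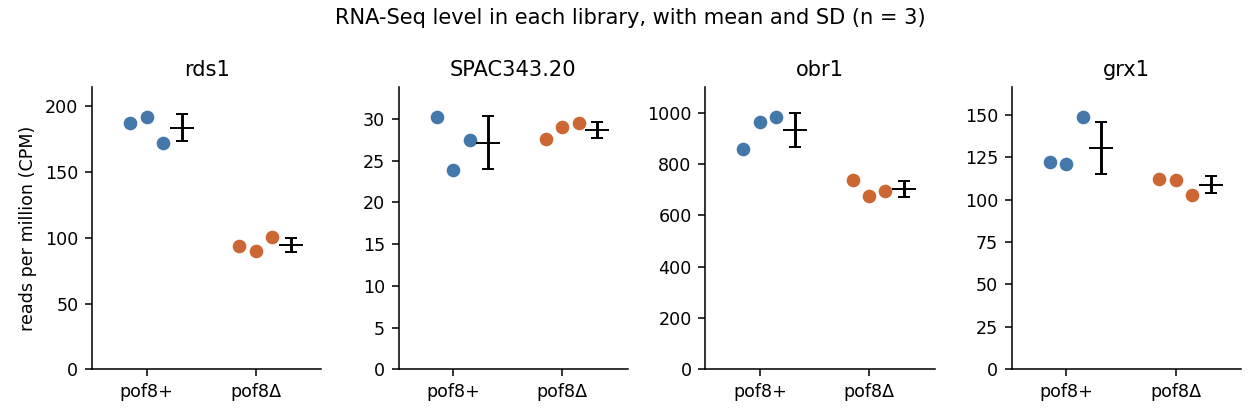
CPM of rds1, SPAC343.20, obr1 and grx1 in each pof8+ (blue) and pof8Δ (orange) library, with the mean and SD of the 3 libraries in black and axes that start at 0. The groups are apart for rds1, obr1 and grx1 and overlap for SPAC343.20.

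By the rule used for the whole table (edgeR's quasi-likelihood test, absolute log2 fold change above 1, adjusted p below 0.05 over 40 RNAs), 1 RNA was called lower, or 2.5% of the 40, and 0 were called higher, or 0%. The 1 RNA was TER1, and 0 of the 4 genes were called. At an unadjusted p below 0.05, 5 RNAs were lower and 2 were higher, and DESeq2 also called 0 higher. Every pof8Δ library lay below every pof8+ library for 8 RNAs, or 20%, 3 of which are rds1, obr1 and grx1. Nothing is read from these counts, since the contrast chose the genes. Among the 26 protein-coding RNAs listed, rds1, obr1 and grx1 held the lowest 3 log2 fold changes. The next was aar2, a splicing factor gene, at -0.19 ± 0.115 (standard error), just outside the 3, with grx1 just inside. The median was -0.074 over the 40 RNAs and -0.058 over the coding ones.

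rds1 lay just short of the limit of -1 and passed it, at -1.002, without pof8+ replicate 3 and without pof8Δ replicate 3, which raised the number of RNAs called lower from 1 to 2. Scaling by TMM factors over the 40 RNAs moved the median of all 40 from -0.074 to 0.029. It gave -0.86 for rds1, -0.31 for obr1, -0.16 for grx1 and 0.17 for SPAC343.20, all higher by about the same amount. In whole-cell RNA, less RNA per cell and fewer cells that hold it cannot be told apart.

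**Figure D2:**
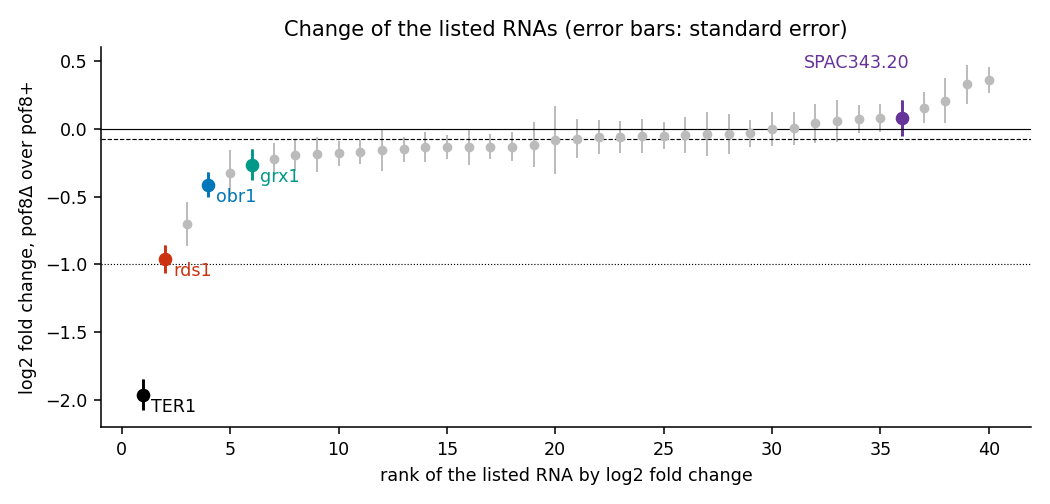
Log2 fold change of the 40 listed RNAs in pof8Δ over pof8+ (y axis) by rank (x axis), with standard errors, the median of the 40 as a dashed line and the limit of -1 dotted. rds1 at -0.96, obr1 at -0.41 and grx1 at -0.26 take ranks 2, 4 and 6 from the low end, above TER1 at -1.96. The U2 RNA snu2 at -0.70 and the U4 RNA snu4 at -0.33 lie between them. SPAC343.20 stands at 0.081 near the high end.

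Counts of opposite-strand partners can be set against each other within a library, which removes the scaling. In pof8+ replicates 1 to 3, the reads of SPAC343.20 came to 16.1%, 12.5% and 15.9% of those of rds1. In pof8Δ replicates 1 to 3 this was 29.5%, 32.3% and 29.4%. The share went from 14.8% ± 2.06 to 30.4% ± 1.63 (SD, n = 3 each), with no overlap between groups, through the lower counts of rds1. These values restate the fold changes of both genes and are not a separate result. Whether the authors' counting used strand is not given in the sources used here. The unequal counts of overlapping genes show that reads were at least not counted alike for both.

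SPNCRNA.793 was far below obr1. It had 464, 630 and 658 reads in pof8+ libraries and 696, 799 and 783 reads in pof8Δ libraries. These were 1.17% ± 0.157 and 1.64% ± 0.215 of the reads of obr1 (SD, n = 3 each). Its own log2 fold change was 0.059 ± 0.156 (standard error), with overlapping groups, and so moved by less than its error.

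**Figure D3:**
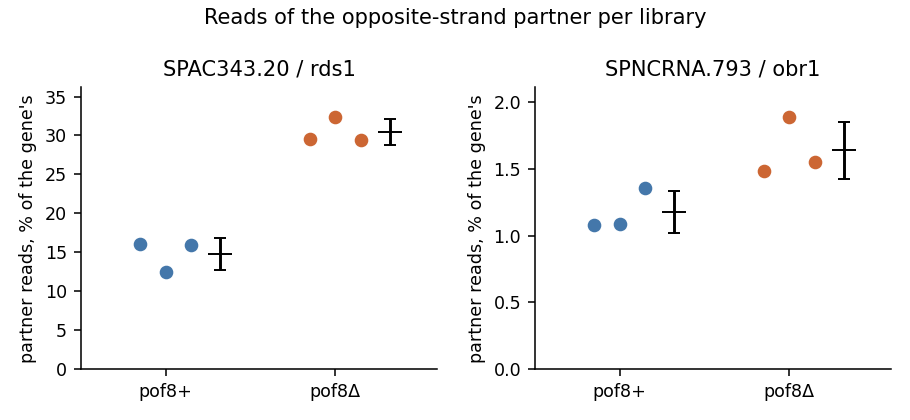
Reads of the opposite-strand partner as a percentage of the reads of rds1 (left, SPAC343.20) and obr1 (right, SPNCRNA.793) in each pof8+ (blue) and pof8Δ (orange) library, with mean and SD. The share for rds1 is 12.5% to 16.1% in pof8+ and 29.4% to 32.3% in pof8Δ, and that for obr1 stays below 2% in all 6 libraries.

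How the 4 genes rank in level was not used to choose them. Levels were compared as RPKM, CPM per kilobase of gene, with the gene lengths behind the deposited average RPKM: 1996 bp for rds1, 2010 bp for SPAC343.20, 957 bp for obr1 and 502 bp for grx1. Over the 6 libraries, obr1 was at 707 to 1025 RPKM and grx1 at 205 to 296 RPKM. rds1 followed at 45.0 to 95.9 RPKM, and SPAC343.20 was lowest at 11.9 to 15.01 RPKM. The order obr1, grx1, rds1, SPAC343.20 was the same in 6 of 6 libraries.

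Between neighbours in that order, obr1 exceeded grx1 by 1.84 ± 0.129 on the log2 RPKM scale (SD, n = 6 libraries). For rds1 minus grx1 the difference was -1.84 ± 0.424, and for rds1 minus SPAC343.20 it was 2.25 ± 0.589. The wider spread of the last pair of differences moved with the group, since in pof8+ libraries alone they were -1.49 and 2.77. All 6 pairs were compared by an exact sign-flip permutation test over the 6 libraries (two-sided), and each gave p = 0.03125 and an adjusted p of 0.03125, the smallest that 6 libraries allow. Each difference had the same sign in 6 of 6 libraries, which by itself sets this p. The p-values therefore add nothing to that order. Both groups were pooled in the test, and the libraries may be technical repeats.

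The RNAs whose pattern over the 6 libraries was most like each gene were found by the root mean square difference of log2 CPM, each centred on its own mean. For grx1, they were aar2 (0.073) and mug134 (0.080), with a median of 0.172 over the other 39 RNAs. For obr1, they were grx1 (0.118) and aar2 (0.123), against a median of 0.218. For rds1, the distances were larger, with the U2 RNA snu2 (0.279) nearest and then obr1 (0.294), against a median of 0.477. SPAC343.20 was nearest to mvd1, a gene of the mevalonate pathway (0.112), and SPAC10F6.17c (0.126), against a median of 0.193. These distances hold the group difference that chose the genes and are given as a description.

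In the IP libraries each gene was compared as its reads over the median read number of genes with at least 1 read, 108 for the Lsm8 IP and 43 for the control IP. With 1 library each there is no replicate check, so the values compare these 2 libraries, and the exact Clopper-Pearson intervals at 95% cover counting error only. For a call of enrichment, the normalized count with Lsm8 had to be 10 or more above the control and over 2 times as high. This held for 34 of 6578 genes with reads, or 0.517%, where control counts below 3 reads were taken as 3 for the ratio. rds1, SPAC343.20 and grx1 were among the 34 and obr1 was not. The IP reads of rds1 and SPAC343.20 cannot be told apart, as given below, so their 2 calls are not separate. The calls were close, with differences of 11.01 for rds1, 10.18 for SPAC343.20 and 11.83 for grx1 against the minimum of 10. All 3 calls were lost with the upper quartile as scaling, where the differences were 5.50, 5.10 and 5.78, and with library totals, where no ratio was above 2.

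grx1 had the highest ratio of the 4. The Lsm8 IP held 1679 of its reads against 160 in the control IP, which gives a ratio of 4.18 (95% interval 3.55 to 4.94). ceo5, the next gene on the same strand, had 227 and 148 reads and a ratio of 0.611 (0.494 to 0.756). Reads of SPNCRNA.4190 that fall within grx1 would be counted for grx1 in these unstranded libraries.

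For rds1 there were 1928 Lsm8 IP reads against 294 control reads, or a ratio of 2.61 (2.31 to 2.96). SPAC343.20 had 1843 and 296 reads and a ratio of 2.48 (2.19 to 2.81). In these unstranded libraries the reads of SPAC343.20 were 95.6% of those of rds1 with Lsm8 and 101% in the control. In the stranded RNA-Seq of pof8+ cells this was 14.8%. The IP reads therefore cannot be assigned to one of the 2 genes. The genes on either side had few reads, with 43 Lsm8 IP against 7 control reads for SPAC343.21, a ratio of 2.45 (1.09 to 6.44), and 25 against 15 for gta2, a ratio of 0.664 (0.336 to 1.35). Beyond SPAC343.21, msc1 had 82 against 70 reads and a ratio of 0.466 (0.335 to 0.651).

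obr1 held the most IP reads of the 4, 5834 with Lsm8 and 1401 in the control. Its ratio of 1.66 (1.56 to 1.76) lay below 2 with its whole interval. SPNCRNA.793 had 5943 and 1423 reads, 102% of those of obr1 in both libraries, and the same ratio of 1.66. As for rds1, these reads cannot be assigned to one strand. The non-coding genes SPNCRNA.792 and SPNCRNA.794 on either side had 84 against 8 and 30 against 16 reads.

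For comparison, TER1 had a ratio of 165 (138 to 198) and U6 of 31.4 (30.92 to 31.96), far above all 4 genes. Of 4625 protein-coding genes with at least 10 control reads, 1.49% reached the ratio of grx1. The shares were 5.08% for rds1, 6.01% for SPAC343.20 and 15.7% for obr1. High ranks follow in part from the choice of the genes among RNAs with signal in the Lsm8 IP. Those of rds1 and SPAC343.20 rest on reads that cannot be told apart and are not separate. The ranks do not depend on how the libraries are scaled, but the ratios do. With each library scaled by its total, the ratios were 1.497 for grx1, 0.935 for rds1, 0.888 for SPAC343.20 and 0.594 for obr1, and snRNA genes took 70.6% of the Lsm8 IP library and 2.62% of the control IP library.

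**Figure D4:**
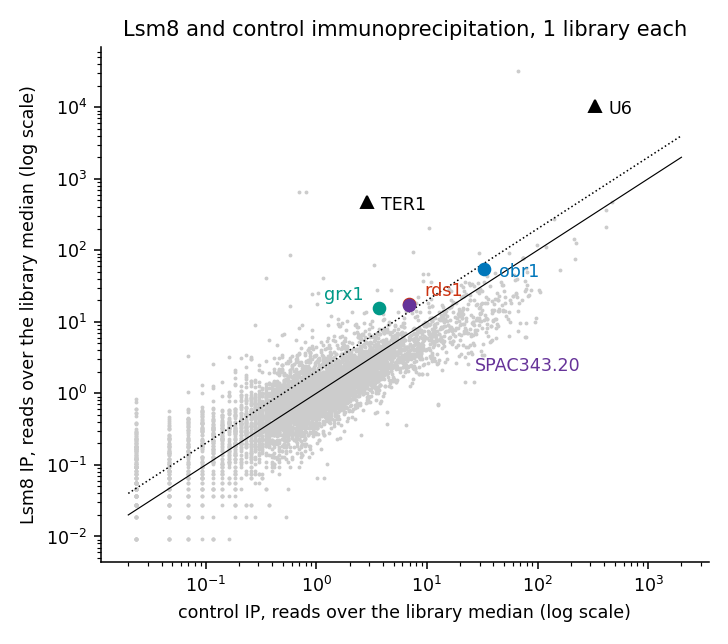
Reads over the library median in the control IP (x axis) and the Lsm8 IP (y axis), both on log scales, for the 6323 genes detected in both (grey). The solid line marks equal values and the dotted line a ratio of 2. grx1 at 4.18, rds1 at 2.61 and SPAC343.20 at 2.48 lie above the dotted line and obr1 at 1.66 lies below it, while TER1 and U6 (triangles) stand far above.

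Other genes of the same pathways were set beside the 4 in 3 lists from general knowledge. Of all genes with at least 10 control reads, 625 of 5523, or 11.3%, had a ratio above 2. A ratio below 0.5 was found for 963, or 17.4%, and the median was 0.877. RNA-Seq counts of the other list genes were not analysed here.

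Of the glutathione and thioredoxin genes, 22 of 25 had at least 10 control reads, 3 of which had a ratio above 2 and 2 a ratio below 0.5, with a median of 0.942. Without grx1, 2 were above 2 and the median was 0.816. Of the 22, grx1 was the highest and the only one enriched by the rule. Since grx1 was chosen among RNAs with signal in the Lsm8 IP, this follows in part from the choice. gcs2, which encodes the regulatory subunit of glutamate-cysteine ligase, had a close ratio of 4.002 (3.25 to 4.97) from 995 and 99 reads, but its difference was below 10 normalized counts. The third was grx2, named after its value was seen, which encodes another glutaredoxin and had a ratio of 2.60 (1.90 to 3.64). At the other end stood gpx1, the glutathione peroxidase gene, at 0.434 (0.341 to 0.554), and mxr1, for a methionine sulfoxide reductase, at 0.498 (0.329 to 0.757). Among list genes with fewer control reads, gst1 had a ratio of 5.18 from 26 and 2 reads, srx1 2.15 and grx3 1.86.

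Of the stress response genes, 20 of 21 had at least 10 control reads. Of the 20, rds1 was the 1 with a ratio above 2, which again follows in part from the choice of the genes. A ratio below 0.5 was found for 2, and the median was 1.02. The gene left out, zym1, had a ratio of 4.91 from 37 and 3 reads. Without rds1 and obr1 the median was 0.966. The IP reads of these 2 genes cannot be told apart from those of their opposite-strand partners. The second highest of the 20 was ctt1, the catalase gene, also in the glutathione and thioredoxin list, at 1.77 (1.23 to 2.62). The lowest were gpx1, which like ctt1 is in both lists, and ssa2, an Hsp70 chaperone gene, at 0.481 (0.459 to 0.503).

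The stress signalling genes hold the Sty1 kinase pathway and the transcription factors Atf1, Pap1 and Hsf1. All 21 had at least 10 control reads, 2 had a ratio above 2 and 3 were below 0.5, with a median of 0.805. The highest were cmk2, which encodes a MAPK-activated kinase, at 3.53 (2.06 to 6.48), and hsf1, the heat shock factor gene, at 2.07 (1.63 to 2.65). The lowest were pyp2, a phosphatase gene of the Sty1 pathway, at 0.398 (0.222 to 0.714), and crm1, which encodes the exportin that carries Pap1 out of the nucleus, at 0.467 (0.394 to 0.555).

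**Figure D5:**
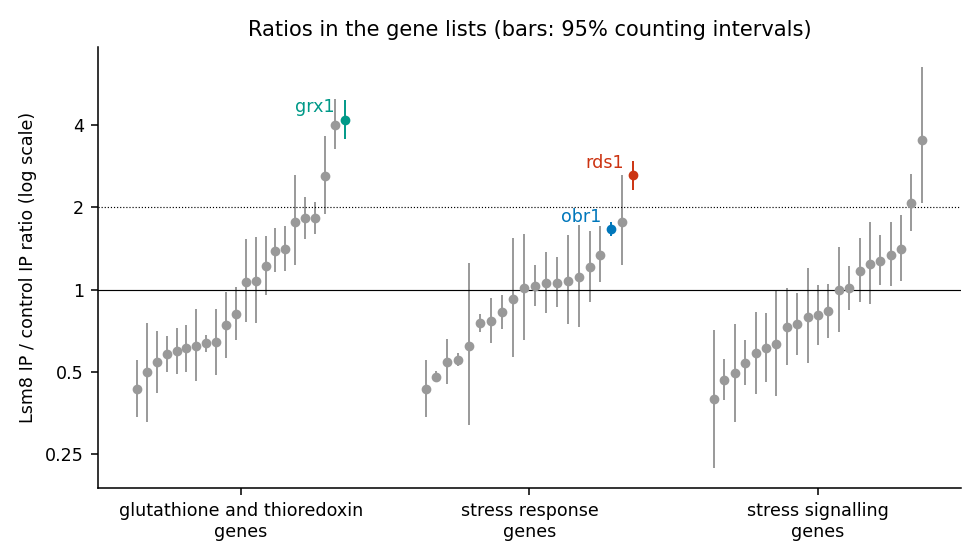
Ratio of the Lsm8 IP to the control IP on a log scale for the genes of 3 lists with at least 10 control reads, ordered within each list, with 95% counting intervals. The solid line marks 1 and the dotted line 2. grx1 at 4.18 and rds1 at 2.61 are the highest shown of their lists, obr1 stands at 1.66, and most other genes lie below 2. The IP reads of rds1 and obr1 cannot be told apart from those of their opposite-strand partners.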

How the data were processed

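RNA-Seq reads were 100 bp, single-end and stranded, and IP reads were 40 bp and unstranded. The authors aligned both to ASM294v2 with STAR 2.5.2b and report counting unambiguous uniquely mapped reads per gene. For 40 of 44 listed RNAs, the authors deposited the read count of each RNA-Seq library, without normalization, and the average RPKM over the 6 libraries. The other 4 have no counts in the table and were not used. For the IP, the authors deposited a signal, the read count of the Lsm8 IP divided by the library's median. A second deposited column holds its ratio to the control IP, counted without regard to strand. Although obr1 lies within SPNCRNA.793, the 2 had 5834 and 5943 Lsm8 IP reads. Reads in an overlap were therefore not left out of the IP values as ambiguous. The deposited table also holds the authors' edgeR 3.14.0 fold changes, likelihood ratios and p-values, which were not used.

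Library totals were worked back from the average RPKM, after which all 40 gene lengths came out whole (within 1e-06 bp). Whole reads were recovered from the IP values for 100% of genes with reads in both libraries (tolerance 1e-06 per read). With 1 library each, no count test was possible. For 98 genes with reads in the control IP only, counts were not assigned.

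Counts were fitted with edgeR 4.0.16 in R 4.3.3 by its quasi-likelihood test with library totals as scaling, and p-values were adjusted over the 40 RNAs by the Benjamini-Hochberg method. The standard error of a log2 fold change was the absolute log2 fold change divided by the square root of the test's F statistic. It rests in part on dispersion estimated over the 40 RNAs, so it is not the spread of 1 gene's libraries alone. A filter of 1 CPM in 3 libraries removed no RNA. The fit and the totals were tested on simulated data. The decreases simulated for the fit were larger than those of rds1, obr1 and grx1, so that test does not cover changes of their size. DESeq2 1.42.0 served as an alternative. Exact tests and intervals were computed with SciPy 1.17.1 and NumPy 2.4.6 under Python 3.11.15, tables were joined with pandas 2.3.3, and plots were drawn with Matplotlib 3.10.9.

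The genes, lists and tests were chosen with earlier results of these data known. Named were the 4 genes, the 2 RNAs most like each, TER1 and U6, and from each list the enriched genes and those with the 2 highest and 2 lowest ratios among genes with at least 10 control reads. Outside this rule, grx2, gst1, srx1, grx3, zym1, snu4 and the neighbouring genes were named as well. Of 7014 genes, 6846 were matched to ASM294v3, used for names, classes and overlaps. Alternatives covered the scaling, test, thresholds, gene length, a block for the replicate number and leaving out single libraries.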

Additional observations from a re-analysis of the deposited data

How the results depend on the processing

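With 1 library left out, the log2 fold change ranged from -1.002 to -0.92 for rds1, from -0.47 to -0.37 for obr1, from -0.31 to -0.16 for grx1 and from -0.005 to 0.16 for SPAC343.20, and 1 to 2 RNAs were called lower. At an absolute log2 fold change above 0.5, 3 of the 40 were called lower: TER1, rds1 and snu2, the last at -0.70. obr1 and grx1 were not among them. TMM factors and DESeq2 size factors computed over the 40 RNAs gave -0.86 and -0.87 for rds1 and -0.31 and -0.32 for obr1. The deviations of same-numbered libraries had correlations of 0.335, -0.677 and 0.198 (mean -0.048), so the numbers are not taken to pair them. Over all pairs of a pof8+ and a pof8Δ library, correlations ran from -0.691 to 0.729, both with pof8+ replicate 3. Some libraries with different numbers thus deviated alike. With the replicate block the values were -0.96 for rds1, -0.41 for obr1, -0.26 for grx1 and 0.087 for SPAC343.20, and 1 RNA was called lower. The 6 differences in log2 RPKM kept their signs in pof8+ libraries alone, with the exon lengths of ASM294v3 and with each library left out.

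In the IP, scaling by library totals gave ratios of 0.935 for rds1, 0.888 for SPAC343.20, 0.594 for obr1 and 1.497 for grx1, with 18 RNAs enriched, 0 of the 4 genes among them, and 0 genes of each of the 3 lists above 2. Totals without snRNA genes gave 3.10, 2.94, 1.97 and 4.95 in the same order, with 6 glutathione and thioredoxin genes and 2 stress response genes above 2. The upper quartile gave 1.79 for obr1 and 22 RNAs enriched. With it rds1, SPAC343.20 and grx1 lost their calls, at differences of 5.50, 5.10 and 5.78, although their ratios were 2.81, 2.67 and 4.50. Dividing by a larger number than the median makes the minimum of 10 stricter. Under the deposited scaling and the totals without snRNA genes, 3 of the 4 stayed enriched, and 948 RNAs passed without a minimum difference. At a ratio above 1.5, 6 glutathione and thioredoxin genes and 3 stress response genes were counted, and with at least 3 control reads 2 stress response genes passed 2. The number of reads limits these ratios less than the scaling does, and the lack of replicates cannot be made up for.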
